A study of Mus musculus with 10 samples.

Results

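Membrane-bound mucins are glycoproteins whose long extracellular part, rich in serine and threonine, carries dense O-linked sugars and is held at the cell surface by a transmembrane segment. In the airway they form the brush that coats cilia and microvilli under the mucus gel, and several pass signals into the cell through a short cytoplasmic tail. The 7 genes described here were taken by symbol from the table of 47333 genes: Muc1, Muc4, Muc13, Muc15, Muc16 and Muc20 of epithelia and mesothelium, and Emcn, the endothelial sialomucin also known as mucin-14. The members are defined by symbol and not by a measured value, although earlier results of these data were known when they were chosen. Of the 7 genes, 5 had enough counts to be tested, out of 18024 genes tested in all.

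RNA was sequenced from the right middle lung lobe of 10 untreated mice aged 12 weeks on a C57BL/6J background. Mice that had lost Bpifb1, which encodes a secreted airway protein of the BPI fold family (KO, 5 mice, 1 male and 4 females), were compared with wild-type mice (WT, 5 mice, 2 males and 3 females). Both genotypes shared cages and bedding. The kind of Bpifb1 allele is not given in the sources used here, and the labels do not state that each library came from its own mouse, so the p-values measure the spread between these 10 libraries.

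Libraries held 21357424 to 28321294 counts. Expression is given as CPM, counts per 1000000 in a library, after scaling between libraries. Bpifb1 itself lay at 0.217 to 1.26 CPM in the KO mice and 28.1 to 79.6 CPM in the WT mice, which matches the genotype labels. KO replicate 5, labelled female, went against the other females: Xist, the RNA that silences an X chromosome, was at 1.78 CPM in it, against 274 to 407 CPM in the other 6 females and 1.29 to 1.73 CPM in the males. Counts of Ddx3y, Eif2s3y, Kdm5d and Uty, 4 genes of the Y chromosome, came to 2470 to 3441 in the males, and in the females to no more than 4. The fold changes of the 5 tested mucins are therefore given with and without that mouse. The 10 lists of cell markers, from ciliated, club, goblet, basal and alveolar cells to endothelium, mesothelium and leukocytes, held no gene with 0 counts in all mice, although the basal markers Krt5, Krt14 and Krt17 were too low to test.

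The membrane-bound mucins spanned a wide range of levels in the lung. Because longer genes collect more counts, genes were ordered by CPM per kilobase of annotated exon, a level per length. Muc1 stood first at 101.9 ± 7.13 CPM per kilobase (SD, n = 10), 10.4 times the level of Emcn at 9.83 ± 0.775. Muc20 came next at 3.21 ± 0.486 and Muc4 at 1.82 ± 0.442. Muc16 followed at 0.416 ± 0.0830 and Muc13 at 0.0935 ± 0.0274 CPM per kilobase (SD, n = 10). Ranges over mice of neighbouring genes in this order did not overlap, apart from those of Muc20 (2.41 to 3.67) and Muc4 (1.09 to 2.62), although Muc20 exceeded Muc4 in each of the 10 mice. Among all tested genes, 97.6% were lower per length than Muc1, 70.0% lower than Emcn, 41.3% lower than Muc20, 29.5% lower than Muc4 and 9.33% lower than Muc16. The order was the same when the longest annotated transcript was used as the length, where Emcn moved to 15.1 ± 1.19 CPM per kilobase.

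**Figure D1:**
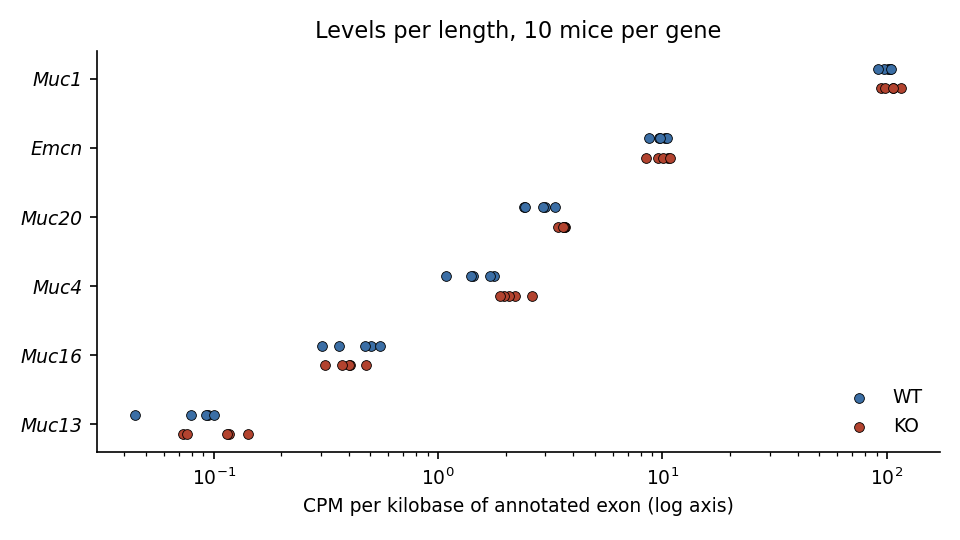
Level of each detected membrane-bound mucin gene in CPM per kilobase of annotated exon (log axis), 1 point per mouse, WT in blue and KO in red. Muc1 lies near 101.9, Emcn near 9.83, and Muc13 lowest near 0.0935, while Muc15 had 0 counts and is not drawn.

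Among the 5 tested membrane-bound mucins, Muc4 and Muc20 had the largest fold changes between the genotypes. Muc4 encodes a very large mucin that can act as a membrane-tethered partner of the receptor ErbB2, and Muc20 a small mucin that binds the receptor Met. In both genes every KO mouse lay above every WT mouse, by a mean of 1.45 times for Muc4 and 1.27 times for Muc20, yet neither passed an adjusted p under 0.05 over all genes by edgeR. The genes are neighbours on chromosome 16 (GRCm38): Muc4 (ENSMUSG00000079620) spans 32735886 to 32782391 on the plus strand and Muc20 (ENSMUSG00000035638) 32777419 to 32797435 on the minus strand. They run towards each other and overlap at their 3′ ends over 4973 bases (32777419 to 32782391), of which 627 bases are exon of both.

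Muc4 measured 26.0, 24.5, 23.1, 22.2 and 30.9 CPM in KO replicates 1 to 5 and 16.9, 12.8, 16.6, 20.9 and 20.0 CPM in WT replicates 1 to 5. KO replicate 5 was highest and WT replicate 2 lowest, and the lowest KO mouse (22.2 CPM) was close to the highest WT mouse (20.9 CPM). Group means were 25.3 ± 3.41 CPM in KO against 17.4 ± 3.19 CPM in WT mice (SD over 5 mice each). The log2 fold change was 0.51 (SE 0.12, 95% confidence interval 0.25 to 0.77, edgeR p 0.0011, adjusted over all genes 0.128). By the DESeq2 Wald test Muc4 passed, with an adjusted p of 0.00844 and the same fold change. Without KO replicate 5 the log2 fold change was 0.44 (edgeR adjusted p 0.234) and the other KO mice averaged 24.0 ± 1.66 CPM (SD, n = 4).

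Muc20 measured 14.8, 13.7, 14.7, 14.6 and 14.5 CPM in KO replicates 1 to 5 and 12.0, 11.9, 9.72, 9.86 and 13.4 CPM in WT replicates 1 to 5. The KO mice sat within a narrow band just above the highest WT mouse, whereas the WT mice were spread more widely. The KO mice had 316 to 375 counts, and their band is no wider than counting error alone would give. Nothing is read from its width. Means were 14.5 ± 0.413 CPM in KO against 11.4 ± 1.58 CPM in WT mice (SD over 5 mice each). The log2 fold change was 0.33 (SE 0.09, 95% confidence interval 0.14 to 0.53, edgeR p 0.00253, adjusted 0.143), and 0.34 without KO replicate 5 (edgeR adjusted p 0.259). DESeq2 gave an adjusted p of 0.0572 for Muc20.

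Small differences between the genotypes were common across all genes. Over all genes 0.0222% passed between the genotypes at an edgeR adjusted p under 0.05 (0.00555% higher in KO), and 17% had an unadjusted p under 0.05 (8.92% higher and 8.04% lower in KO). By DESeq2 1.92% of all genes passed, made up of 1.4% higher in KO and the rest lower. Without KO replicate 5 these edgeR shares were 0.0111% adjusted and 13.2% unadjusted. CPM ranges did not overlap between the genotypes in 1.88% of tested genes, with KO higher in 0.96%. Of the 5 tested mucins 2 had an unadjusted p under 0.05 and ranges apart, both higher in KO. Their median log2 fold change was 0.07, beside -0.003 over all tested genes.

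**Figure D2:**
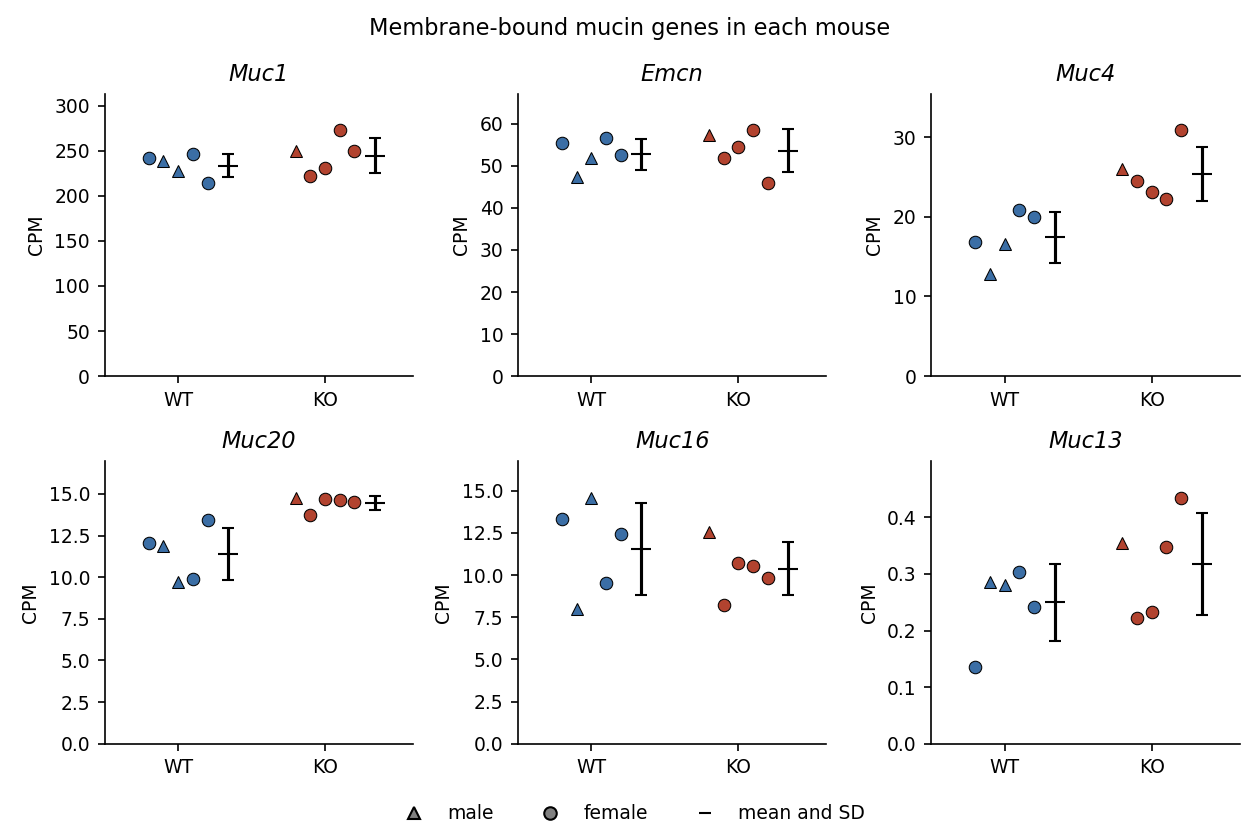
CPM of each detected membrane-bound mucin gene in WT (blue) and KO (red) mice, triangles for males and circles for females, with the mean and SD of each genotype in black. KO mice lie above all WT mice for Muc4 (22.2 to 30.9 against 12.8 to 20.9 CPM) and Muc20 (13.7 to 14.8 against 9.72 to 13.4 CPM), and the groups overlap in the other 4 genes.

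The estimated counts of Muc4 and Muc20 are not independent of each other. In 8 of the 10 mice neither gene's count was a whole number (within 0.01), while the sum of both was whole in all 10, as happens when reads that fit both genes are divided between them. In KO replicate 1, for example, 660.92 counts went to Muc4 and 375.08 to Muc20, which sum to 1036. The sum is not affected by that division. It measured 40.8, 38.2, 37.8, 36.8 and 45.4 CPM in KO replicates 1 to 5 and 28.9, 24.7, 26.3, 30.7 and 33.5 CPM in WT replicates 1 to 5. Since both genes have every KO mouse above every WT mouse, their sum must have this too, and nothing is read from it. Tested as 1 gene, the sum had a log2 fold change of 0.44 (SE 0.08, 95% confidence interval 0.27 to 0.61, edgeR p 6.4e-05, adjusted 0.0735), and 0.40 without KO replicate 5 (edgeR adjusted p 0.166). How many reads were divided cannot be read from the table.

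Within a genotype the 2 genes ranked the mice differently. KO replicate 5 had the most Muc4 of all mice, but its Muc20 (14.5 CPM) was below that of 3 other KO mice, by less than counting error. WT replicate 4 had the most Muc4 among WT mice (20.9 CPM) and nearly the least Muc20 (9.86 CPM). The ratio of Muc4 to Muc20 counts ran from 1.52 to 2.12 in KO and from 1.08 to 2.11 in WT mice. A correlation over all mice is not given, because the genotypes form separate clusters in both genes and hold 5 mice each.

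Genes around the pair had smaller fold changes than Muc4 and Muc20, apart from the antisense gene Tnk2os at under 1 CPM (log2 fold change 0.54, SE 0.31, edgeR adjusted p 0.389), named after its value was seen. Within 500000 bases of Muc4 and Muc20, 19 other genes were tested and 0 passed an edgeR adjusted p under 0.05. Of the 19 genes 3 had an unadjusted p under 0.05, all higher in KO. Over all genes 17% had such a p, and 8.92% were higher in KO. Those were Fbxo45 (log2 fold change 0.17, edgeR adjusted p 0.178), Ubxn7 (0.18, adjusted p 0.270) and Fyttd1 (0.13, adjusted p 0.255). The nearest genes were Smbd1, 7325 bases beyond Muc20 at only 0.521 CPM in KO against 0.567 CPM in WT mice, and Rubcn, a regulator of autophagy, at a log2 fold change of 0.11 (edgeR adjusted p 0.387). On the other side lay the kinase gene Tnk2 (0.03, edgeR adjusted p 0.798). The median log2 fold change of the 19 genes was 0.03.

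The promoters of Muc4 and Muc20, the pair with ranges apart, and of Muc1, the most abundant member, are shown to compare the sequence at their start sites. Each is the 250 bases before the RefSeq start (GRCm38.p6), read 5′ to 3′ on the gene's own strand, with matches to the searched motifs in capitals.
Muc1, chr3:89228806-89229055, plus strand: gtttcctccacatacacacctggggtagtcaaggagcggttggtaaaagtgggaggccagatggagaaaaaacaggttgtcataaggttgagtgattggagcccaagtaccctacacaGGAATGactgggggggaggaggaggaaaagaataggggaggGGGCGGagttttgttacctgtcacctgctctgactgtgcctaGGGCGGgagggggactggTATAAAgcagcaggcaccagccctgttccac
Muc4, chr16:32735636-32735885, plus strand: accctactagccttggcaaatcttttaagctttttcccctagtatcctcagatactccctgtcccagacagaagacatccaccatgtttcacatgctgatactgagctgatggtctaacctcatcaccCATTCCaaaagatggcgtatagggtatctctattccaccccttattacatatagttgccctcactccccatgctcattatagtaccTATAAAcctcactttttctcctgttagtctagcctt
Muc20, chr16:32797436-32797685, minus strand: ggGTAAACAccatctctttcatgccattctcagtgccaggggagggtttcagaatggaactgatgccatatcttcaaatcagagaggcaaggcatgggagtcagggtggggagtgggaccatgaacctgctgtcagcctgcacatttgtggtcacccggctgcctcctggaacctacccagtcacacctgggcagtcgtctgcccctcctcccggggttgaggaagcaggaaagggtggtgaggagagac

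Both strands were searched for 6 motifs, and no match overlapped another. The TATA box TATAAA was found 31 to 26 bases before the start of Muc1 and 36 to 31 bases before that of Muc4, and 12.4% of 32851 windows of the same length held it. The GC box GGGCGG had 2 matches in Muc1, at 91 to 86 and 49 to 44 bases before the start (32.7% of windows). The TEAD motif GGAATG matched once in Muc1 and, on the opposite strand, once in Muc4 (12.6% of windows). The forkhead motif TGTTTAC matched once in Muc20, on the opposite strand (3.17% of windows). The STAT motif TTCNNNGAA (7.02%) and the ETS motif TTCCGG (12.0%) had no match in these 3 windows. Muc4 and Muc20 thus shared none of the 6 motifs, and their windows differed in G and C content, 43.6% in Muc4 and 57.2% in Muc20 beside a median of 52.4%. A match describes the letters in the window and shows no binding.

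Muc1 (ENSMUSG00000042784, chromosome 3, 89229057 to 89233381, plus strand), the mucin of airway and alveolar epithelium whose cytoplasmic tail tempers inflammatory signalling, was the most abundant and the steadiest. It measured 249, 221, 230.5, 272.5 and 249 CPM in KO replicates 1 to 5 and 241.5, 238, 228, 246 and 214 CPM in WT replicates 1 to 5. The genotypes overlapped, with 221 to 272.5 CPM in KO against 214 to 246 CPM in WT mice. The coefficient of variation over the 10 mice was 7.0%. The log2 fold change was 0.07 (SE 0.06, 95% confidence interval -0.07 to 0.21, edgeR adjusted p 0.612; 0.06 without KO replicate 5), and the upper end of its interval lay below the lower end of that of Muc4. Beside it, 5 of 9 alveolar type 2 markers were lower in KO at an unadjusted p under 0.05 (0 after adjustment), where 8.04% of all genes were. Their summed level was 24860 to 28250 CPM in KO against 25830 to 30450 CPM in WT mice. Over the 10 mice Muc1 had a Pearson's r of 0.184 with the mean log2 CPM of these markers (permutation p 0.614, adjusted 0.993 over 50 relations of a mucin with a marker list). With each genotype centred on its mean this r was 0.581, and it was 0.874 within KO and 0.135 within WT mice. Without the 2 mice farthest from the median score, KO replicate 2 and WT replicate 4, r was -0.08. How much of the Muc1 level or fold change comes from cell content was not tested.

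Muc16 (ENSMUSG00000109564, chromosome 9, 18495455 to 18674530, minus strand) encodes the largest of these mucins, a surface protein of mesothelium and mucosal epithelia that binds mesothelin. It measured 12.6, 8.24, 10.7, 10.5 and 9.84 CPM in KO replicates 1 to 5 and 13.3, 8.01, 14.6, 9.51 and 12.4 CPM in WT replicates 1 to 5. The highest values were in WT replicates 1 and 3, but WT replicate 2 was the lowest of all mice, and the genotypes overlapped. The log2 fold change was -0.14 (SE 0.16, 95% confidence interval -0.50 to 0.21, edgeR adjusted p 0.695), and -0.13 without KO replicate 5.

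Muc16 followed the mesothelial markers from mouse to mouse. The mean log2 CPM of the 8 markers Msln, Upk3b, Upk1b, Lrrn4, Wt1, Rspo1, Gpm6a and Bnc1 ran from 4.174 in KO replicate 5 to 4.787 in WT replicate 3, the mouse with the most Muc16. Pearson's r with Muc16 was 0.894 over 10 mice (permutation p 8.9e-04, adjusted 0.0445 over 50 relations of a mucin with a marker list), and Spearman's rho was 0.855 (permutation p 0.003, adjusted 0.15). Without the 2 mice farthest from the median score, WT replicate 3 and KO replicate 5, r was 0.952. It was 0.861 in the 7 females and 0.965 without KO replicate 5 alone, and 0.896 with each genotype centred on its mean. Fewer mesothelial cells in a piece and less RNA per cell cannot be told apart in whole tissue. Between the genotypes 1 of these 8 markers was lower in KO at an unadjusted p under 0.05 and 0 passed. Over all genes 8.04% were lower in KO at such a p. The median log2 fold change of this list was -0.18, beside -0.003 over all tested genes. The summed level of the 8 markers was 215 (KO replicate 5) to 286 CPM in KO against 233 to 315 CPM in WT mice.

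**Figure D3:**
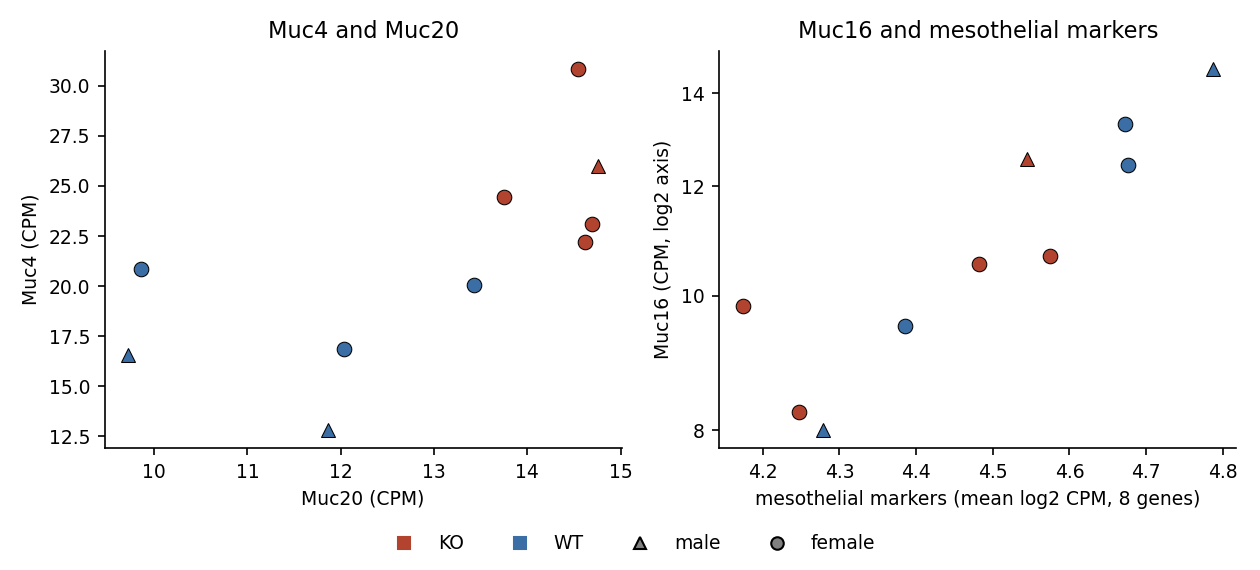
Left, Muc4 against Muc20 in CPM for each mouse. Right, Muc16 in CPM (log2 axis) against the mean log2 CPM of 8 mesothelial markers, with KO in red, WT in blue, triangles for males and circles for females. On the left the genotypes form separate clusters, and on the right mice of both genotypes lie along 1 rising band (r 0.894).

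By Pearson's r, 1 of the 50 relations between a tested mucin and a marker list had an adjusted p under 0.05, that of Muc16. By Spearman's rho 0 passed. Before adjustment 4 of the 50 had a permutation p under 0.05 by Pearson's r, where some would by chance. The others of these 4 are given below and did not pass. Muc4 tended to be low where club cell markers were high (r -0.804, permutation p 0.00602, adjusted 0.15, rho -0.709 with permutation p 0.0262, adjusted 0.655). This r was -0.62 without the 2 mice farthest from the median score and -0.722 with each genotype centred. Club cell markers were lower in KO at an unadjusted p under 0.05 in 2 of 8 genes (8.04% of all genes). The median log2 fold change of this list was -0.11, and its summed level was 28370 to 31940 CPM in KO against 29430 to 37450 CPM in WT mice. Muc20 tended to rise with ciliated cell markers (r 0.67, permutation p 0.0343, adjusted 0.521, rho 0.491 with permutation p 0.154, adjusted 0.926). This r was 0.389 without KO replicate 1 and WT replicate 3, the mice farthest from the median score, and 0.79 with each genotype centred. Ciliated cell markers were higher in KO at an unadjusted p under 0.05 in 3 of 10 genes (8.92% of all genes). The median log2 fold change of this list was -0.03, and its summed level was 745 to 876 CPM in KO against 733 to 835 CPM in WT mice.

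Muc4 tended to rise with goblet and gland markers (r 0.664, permutation p 0.0417, adjusted 0.521, rho 0.576 with permutation p 0.0892, adjusted 0.926). This relation rested on KO replicate 5 and WT replicate 3, without which r was 0.381, and r was 0.469 without KO replicate 5 alone. KO replicate 5, the mouse with the most Muc4, stood apart in these markers, with a mean log2 CPM of 4.352 against 2.867 to 3.492 in the other 9 mice. Their summed level was 354 CPM in that mouse, 144 to 202 CPM in the other KO mice and 159 to 237 CPM in the WT mice. Of 8 tested markers 1 was higher in KO at an unadjusted p under 0.05, where 8.92% of all genes were. The part of these cells in the Muc4 and Muc20 values was not tested.

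Emcn (ENSMUSG00000054690, chromosome 3, 137341067 to 137432185, plus strand) encodes endomucin, which coats venous and capillary endothelium and hinders leukocyte adhesion. It measured 57.4, 51.7, 54.6, 58.4 and 45.8 CPM in KO replicates 1 to 5 and 55.5, 47.2, 51.9, 56.7 and 52.5 CPM in WT replicates 1 to 5. KO replicate 5 was lowest and KO replicate 4 highest, so the KO range enclosed the WT range. The log2 fold change was 0.02 (SE 0.07, 95% confidence interval -0.14 to 0.17, edgeR adjusted p 0.934), 0.07 without KO replicate 5 and -0.06 in females alone. Of 10 endothelial markers 1 was higher and 1 lower in KO at an unadjusted p under 0.05. Over all genes 8.92% were higher and 8.04% lower in KO at such a p. The endothelial markers summed to 4514 to 4864 CPM in KO against 3890 to 4960 CPM in WT mice. Emcn did not track that list detectably (r 0.172, permutation p 0.637, adjusted 0.993, rho 0.115 with permutation p 0.759, adjusted 0.949). This r was 0.019 without the 2 mice farthest from the median score. With the list of aerocyte capillary markers r was 0.502, which also did not pass (permutation p 0.134, adjusted 0.658, rho 0.491 with permutation p 0.156, adjusted 0.926). Without the 2 mice farthest from the median of that list r was 0.566.

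Muc13 and Muc15 were at the edge of detection or below it. Muc13 (ENSMUSG00000022824, chromosome 16, 33794037 to 33819934, plus strand), best known from intestinal epithelium, had 3 to 11 counts per mouse and 69 in all. That is 0.318 ± 0.0899 CPM in KO against 0.250 ± 0.0675 CPM in WT mice (SD over 5 mice each), with overlapping ranges. It did not pass the filter on low counts; in the fit without that filter its log2 fold change was 0.39 (SE 0.41, 95% confidence interval -0.45 to 1.22, edgeR adjusted p 0.727), an interval too wide to show a difference of the size seen in Muc4. Muc15 (ENSMUSG00000050808, chromosome 2, 110721340 to 110739527, plus strand) had 0 counts in each of the 10 mice. A count of 0 allows up to 3 counts, which is 0.104 to 0.143 CPM in these libraries and covers counting error only.

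Sex made no detectable difference to the members. Of the 5 tested genes 0 passed between 3 males and 7 females at an edgeR adjusted p under 0.05 (0.583% of all genes did), 0 had an unadjusted p under 0.05 (15.1% of all genes did, 7.34% higher and 7.79% lower in males) and 0 passed by DESeq2 (2.42%, of all genes 1.55% higher in males). The log2 fold changes of males over females were -0.20 for Muc4 (95% confidence interval -0.48 to 0.09, edgeR adjusted p 0.515), 0.12 for Muc16 (-0.27 to 0.51, adjusted p 0.799), -0.06 for Muc20 (-0.27 to 0.15, adjusted p 0.820), -0.03 for Emcn and 0.01 for Muc1. Without KO replicate 5, whose sex label is in doubt, they were -0.16 for Muc4, 0.11 for Muc16, -0.06 for Muc20, -0.06 for Emcn and 0.01 for Muc1 (edgeR adjusted p 0.594 to 0.952). Muc4 was 12.8 to 26.0 CPM in males and 16.9 to 30.9 CPM in females. In females alone the KO mice must lie above the WT mice, because they did so over all mice, and nothing is read from that. Their ranges were 22.2 to 30.9 against 16.9 to 20.9 CPM for Muc4 (log2 fold change 0.39, edgeR adjusted p 0.247). For Muc20 the ranges in females were 13.7 to 14.7 against 9.86 to 13.4 CPM (0.29, edgeR adjusted p 0.283). These females include KO replicate 5, and the other 3 KO females had 22.2 to 24.5 CPM of Muc4 and 13.7 to 14.7 CPM of Muc20. A test of whether the genotype difference varies with sex was not run, as there was 1 male with the KO genotype.

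Among 14 receptors and binding partners of these mucins 0 passed between the genotypes by edgeR. At an unadjusted p under 0.05, 3 were higher and 1 lower in KO, 28.6% of the list beside 17% of all genes, and the median log2 fold change was 0.02. The largest was that of Erbb4, a receptor gene of the ErbB family at 0.693 CPM in KO against 0.458 CPM in WT mice, at 0.66 (95% confidence interval -0.06 to 1.38, edgeR adjusted p 0.334), named after its value was seen. Egfr, also of that family, measured 35.2 ± 3.55 CPM in KO against 29.6 ± 4.03 CPM in WT mice (SD over 5 mice each), a log2 fold change of 0.29 (SE 0.08, adjusted p by edgeR 0.143). Nrg1, a ligand of that family, had a log2 fold change of 0.27 (edgeR adjusted p 0.193), and Lgals3, the galectin that binds mucin sugars, one of -0.22 (edgeR adjusted p 0.170). The partners most closely tied to the pair were Erbb2, the receptor bound by Muc4, at 0.00 (95% confidence interval -0.13 to 0.13), and Met, bound by Muc20, at 0.14 (0.03 to 0.26, edgeR adjusted p 0.216); these were named after their values were seen. Msln, the mesothelin bound by Muc16, was at -0.20 (SE 0.13, edgeR adjusted p 0.445).

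Among the enzymes that build the O-linked sugars, 0% of those that start them and 12.5% of those that extend or cap them had an unadjusted p under 0.05. Over all genes the share was 17%. Of 16 transferases that start O-glycans 15 were tested and 0 had an unadjusted p under 0.05, with Galnt18 (-0.11), Galnt15 (-0.21) and Galnt6 (0.10) the lowest in p and a list median of 0.03 on the log2 scale. Of 20 enzymes that extend or cap them 16 were tested, 0 passed by edgeR, and 1 was higher and 1 lower at an unadjusted p under 0.05. The higher was C1galt1, the core 1 synthase on which most mucin sugars are built, at 64.5 ± 9.66 CPM in KO against 54.5 ± 6.28 CPM in WT mice (SD over 5 mice each), a log2 fold change of 0.28 (SE 0.09, adjusted p by edgeR 0.188). The lower was the sialyltransferase gene St6galnac2 (-0.12, edgeR adjusted p 0.241), and St3gal4, also a sialyltransferase gene, followed at -0.12 (edgeR adjusted p 0.297). The 4 protease genes Adam9, Adam10, Adam17 and Mmp14, whose products shed mucins from the surface, had log2 fold changes of 0.07 to 0.15 and 0 with an unadjusted p under 0.05.

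Of 17 other mucin-like surface proteins 10 were tested and 0 passed between the genotypes by edgeR. Over all genes 17% had an unadjusted p under 0.05 between the genotypes (8.92% higher in KO). Among the 10 tested, 1 gene had such a p. That gene was Parm1, a mucin-like membrane protein, at 20.6 ± 2.03 CPM in KO against 17.9 ± 3.16 CPM in WT mice (SD over 5 mice each), a log2 fold change of 0.28 (SE 0.06, adjusted p by edgeR 0.103). Parm1 passed between the sexes, with a log2 fold change of males over females of 0.38 (SE 0.07, edgeR adjusted p 0.0197) and all males (21.2 to 24.1 CPM) above all females (14.6 to 20.6 CPM). Over all genes 0.449% passed as higher in males and 4.81% had ranges apart between the sexes. Tmem123 (0.08) and Cd164 (0.11) came next in p between the genotypes. Glycam1 and Muc3 had 0 counts in all mice, and 2 of the 17 symbols had no match.

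**Figure D4:**
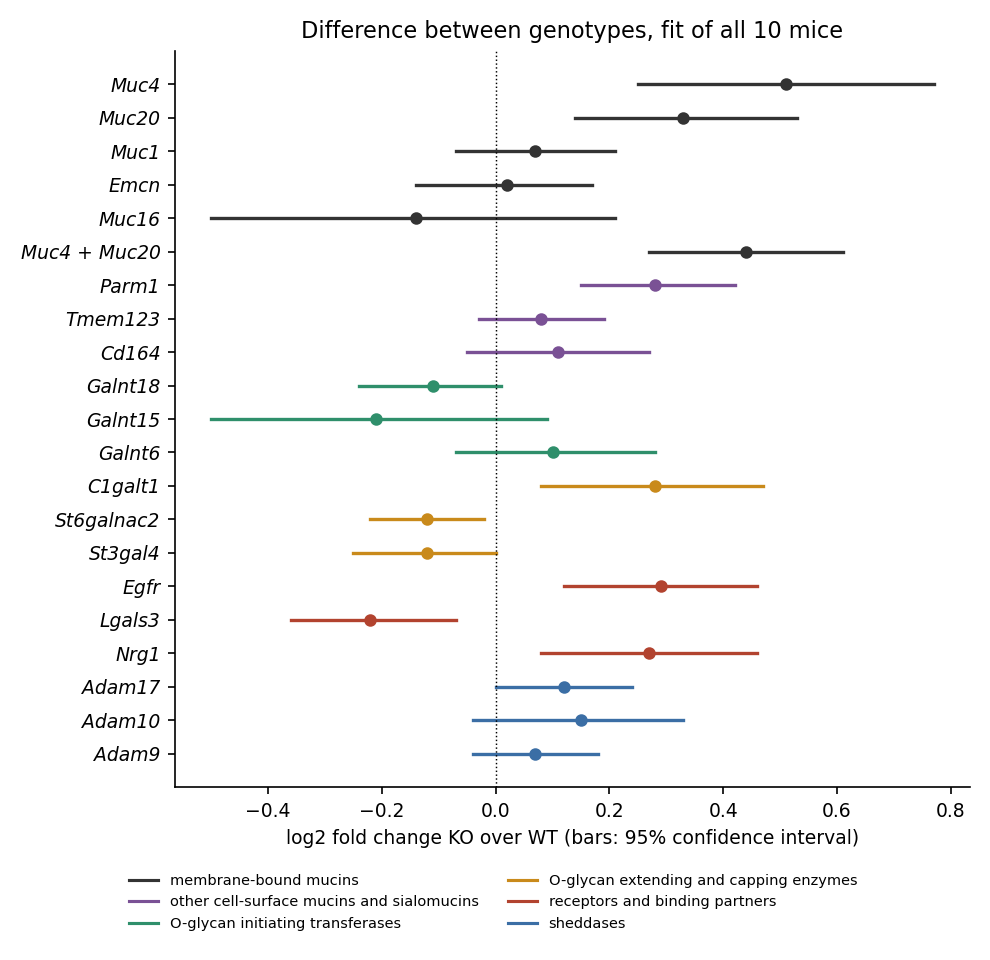
Log2 fold change of KO over WT (points) with its 95% confidence interval (bars) for the 5 tested membrane-bound mucins, the sum of Muc4 and Muc20, and the 3 genes of smallest p in each of 5 related lists. The intervals of Muc4 (0.25 to 0.77) and Muc20 (0.14 to 0.53) exclude 0 before adjustment, while those of Muc1, Emcn and Muc16 include it.

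Each tested mucin was set beside all other tested genes by Pearson's r of log2 CPM over the 10 mice, as a description of likeness among 18024 genes that share libraries and depth. Muc16 was most like Lrrn4 (r 0.931), one of the mesothelial markers above, then Rnf180 (0.899) and Pcnx2 (0.877). Muc1 was most like Trim62 (0.960), Gm19412 (0.944) and Egfl6 (0.916). Muc4 was most like Cul5 (0.958), Mbtd1 (0.938) and Maml3 (0.933), and Muc20 like Adamts19 (0.930), Entpd4 (0.924) and Gm15720 (0.912). Emcn was most like Clec7a (0.923), Ssbp3 (0.903) and C1ra (0.889). These are the highest values among 18024 genes over 10 mice, where high values also arise by chance. A chance level was not computed. The values for Muc4 and Muc20 span genotypes that form separate clusters. After genotype and sex were removed from each gene, r was 0.913, 0.779 and 0.813 for the genes named with Muc4 and 0.821, 0.764 and 0.876 for those named with Muc20. It was 0.946 for Muc16 with Lrrn4 and 0.944 for Emcn with Clec7a. Removing genotype and sex leaves less free variation, so values before and after are not directly comparable. Other genes then ranked higher: 2 of the 3 genes remained among the 3 most like for Muc1, and 0 of 3 for the other 4 mucins.

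**Figure D5:**
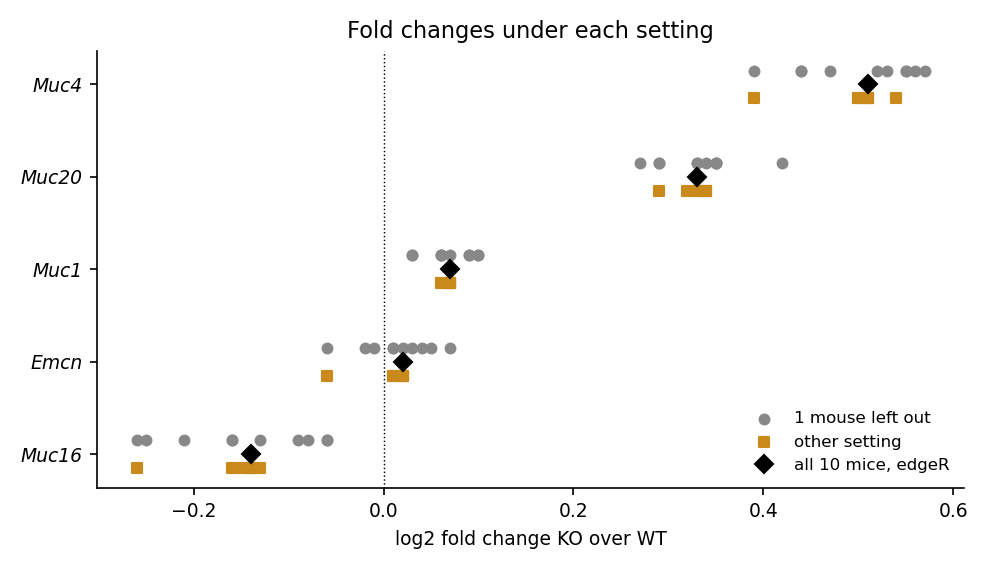
Log2 fold change of KO over WT for each tested membrane-bound mucin in the edgeR fit of all 10 mice (black diamonds), with each mouse left out in turn (grey circles) and under the other settings (orange squares). Muc4 stays between 0.39 and 0.57 and Muc20 between 0.27 and 0.42, Muc1 stays above 0 and Muc16 below 0, and Emcn lies on both sides of 0.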

How the data were processed

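The authors deposited 1 table of estimated counts per mouse Ensembl gene, not scaled between samples. The libraries were stranded mRNA libraries read as single reads of 50 bases, per the labels' protocols, and the submitters' processing notes name STAR 2.6.0 and Salmon 0.9.1 and the builds mm10 and GRCm38. The annotation, strand setting and filters are not given in the sources used here. Of 47333 identifiers 47281 matched GENCODE M21 (GRCm38), which gave symbols, coordinates and exon lengths. Symbols of 6 of the 7 members matched RefSeq's promoter table.

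Estimated counts were rounded and scaled by TMM. KO and WT were compared by edgeR's quasi-likelihood test (edgeR 4.0.16, R 4.3.3, robust) with sex as covariate on genes kept by filterByExpr (minimum count 10, total 15), with Benjamini-Hochberg adjustment over all genes and a threshold of 0.05. The standard error is the absolute log2 fold change over the square root of F. Alternatives used DESeq2 1.42.0, limma 3.58.1 and the settings listed at the end; the sum of Muc4 and Muc20, the motifs, and relations in females or without KO replicate 5 were chosen after seeing the data. Log2 CPM used a prior count of 2, list scores left out genes whose mean was under 1 CPM, and correlations used 100000 two-sided permutations. Scripts were tested on simulated data. The members and lists were chosen with earlier results of these data known. Named genes are all members, up to 3 genes of smallest p per related list, the genes beside Muc4 and Muc20 and up to 4 of smallest p within 500000 bases, and the 3 most like each member.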

Additional observations from a re-analysis of the deposited data

Results flagged for a closer look

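By Dixon's test, which asks whether the highest or lowest mouse of a group stands apart from the rest, 1 of 18 sets of values (6 detected members, each in KO mice, WT mice and females) stood out, where about 0.9 would by chance. Muc20 in KO replicate 2, at 13.7 CPM, lay below the other KO mice, which lay between 14.5 and 14.8 CPM, a gap close to counting error. It was nevertheless above all WT mice, the highest of which had 13.4 CPM.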

How the results depend on the processing

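Muc4, Muc20, Muc1 and Muc16 kept their direction between the genotypes in all 18 alternatives run for each. Muc4 passed in 1 of them, the DESeq2 Wald test, with adjusted p from 0.00844 to 0.343 over all, and Muc20 in 0 (0.0572 to 0.33). The count of 4 genes between the genotypes was 346 with DESeq2, 50 with no filter, 2 with limma-voom and 57 where the threshold was 0.1. With 1 mouse left out it ran from 2 (without KO replicates 2, 4 or 5, or WT replicate 1) to 18 (without WT replicate 3). Between the sexes the 105 genes were 436 with DESeq2, 197 with no filter, 41 with no genotype covariate and 351 where the threshold was 0.1. With 1 mouse left out they ran from 0 (without KO replicate 1, where edgeR left 1919 genes with an unadjusted p under 0.05) to 195 (without WT replicate 4), with 46 without KO replicate 2 and 43 without WT replicate 2. Differences near 0 changed sign. Emcn between genotypes was -0.06 in females alone and -0.06 to 0.07 with 1 mouse left out. Between the sexes Muc1 was -0.01 with no genotype covariate and -0.02 to 0.03 with 1 mouse left out, where Muc16 ran from -0.05 to 0.34, Muc20 from -0.13 to 0.02 and Emcn from -0.15 to 0.03. The causes were not tested. Depth limits Muc13 and Muc15, which had at most 11 and 0 counts per mouse.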
